A study of Mus musculus with 30 samples.

Results

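The 7 cholesterol synthesis genes Hmgcs1, Idi1, Fdft1, Sqle, Lss, Cyp51 and Dhcr7 were followed by RNA-seq in the mouse fracture callus, the tissue that bridges a broken bone as it heals. They were taken by name, as enzymes of 1 pathway, from the 43629 genes in the table of read counts. The choice was made with earlier results of these data known. All 7 had 7 or more counts in each of the 30 libraries. Each library was made from the callus of 1 male C57BL/6J mouse, 20 weeks old when its tibia was cut and fixed with an intramedullary nail. The mice were either lean or diet-induced obese (DIO) on a high-fat diet that began before the fracture, and both diets were kept until harvest. The lean callus was sampled on d3, d5, d7 and d10 after fracture (12 libraries) and the DIO callus on the same days and on d14 and d21 (18 libraries), with 3 mice in each of the 10 groups. The lean callus after d10 was not analysed here. Obesity and the diet that caused it cannot be told apart in this design, and all 10 groups carried a fracture.

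Cholesterol is made from acetyl-CoA by a long chain of enzymes in the cytosol and the endoplasmic reticulum. The transcription factor SREBP2 switches on the genes of the chain when sterols in the membrane run low. SCAP and the INSIG proteins hold it in the endoplasmic reticulum when sterols are plentiful. Hmgcs1 encodes the HMG-CoA synthase of the cytosol, near the top of the chain. Idi1 encodes the isomerase that makes the reactive isoprene unit, and Fdft1 encodes squalene synthase, the first enzyme committed to sterols. Sqle encodes squalene epoxidase, a rate-limiting step, and Lss encodes lanosterol synthase, which closes the sterol rings. Cyp51 encodes lanosterol 14-alpha-demethylase, and Dhcr7 encodes the reductase that turns 7-dehydrocholesterol into cholesterol.

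In GRCm38 the annotation places Hmgcs1 (ENSMUSG00000093930) at chr13:119690379-119708260 (plus strand), Idi1 (ENSMUSG00000058258) at chr13:8885501-8892451 (plus strand), Fdft1 (ENSMUSG00000021273) at chr14:63145150-63179578 (minus strand) and Sqle (ENSMUSG00000022351) at chr15:59315077-59331192 (plus strand). It places Lss (ENSMUSG00000033105) at chr10:76531588-76557138 (plus strand), Cyp51 (ENSMUSG00000001467) at chr5:4081145-4104746 (minus strand) and Dhcr7 (ENSMUSG00000058454) at chr7:143823145-143848410 (plus strand). The sequences just before the RefSeq transcription start are shown for 3 genes that fell from d7 to d10 in the DIO callus and for Idi1, which did not pass the test. They are sequences of GRCm38.p6, written 5′ to 3′ on the strand of the gene, with positions counted from the RefSeq start. That start differs from the gene start of the annotation above. The stretch of Idi1 lies wholly inside the annotated gene, and those of Lss and Cyp51 run into it. The stretches are chr13:119690211-119690335 for Hmgcs1 (plus strand, -140 to -16), chr10:76531505-76531604 for Lss (plus strand, -100 to -1), chr5:4104713-4104837 for Cyp51 (minus strand, -140 to -16) and chr13:8885546-8885605 for Idi1 (plus strand, -60 to -1). Capitals mark 3 motifs searched on both strands: the core of the sterol regulatory element (TCACNCCAC), the NF-Y box (CCAAT, or ATTGG on the other strand) and the Sp1 box (GGGCGG, or CCGCCC on the other strand). No motif overlapped another in these stretches.
Hmgcs1: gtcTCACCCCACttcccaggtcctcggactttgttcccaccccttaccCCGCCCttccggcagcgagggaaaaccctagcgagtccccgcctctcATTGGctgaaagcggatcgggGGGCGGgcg
Lss: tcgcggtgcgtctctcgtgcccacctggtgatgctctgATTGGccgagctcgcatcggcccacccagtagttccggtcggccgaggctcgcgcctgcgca
Cyp51: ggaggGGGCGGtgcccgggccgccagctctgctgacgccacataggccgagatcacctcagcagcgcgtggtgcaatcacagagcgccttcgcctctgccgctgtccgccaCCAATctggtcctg
Idi1: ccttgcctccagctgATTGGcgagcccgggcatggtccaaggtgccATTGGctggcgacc
Windows of 300 bases around the start were found for 5 of the 7 genes, Hmgcs1, Idi1, Lss, Cyp51 and Dhcr7, and windows of Sqle and Fdft1 were not used here. The sterol element core was present in 1 of these 5 genes, Hmgcs1, with its first base at -137, and in 1.44% of the 27025 genes with a window. The NF-Y box was present in 5 of 5, against 41.1% of all genes, and the Sp1 box in 5 of 5, against 38.2%. A gene was counted if any of its windows held the motif. Dhcr7 had 3 windows, and its NF-Y boxes lay only in chr7:143829964-143830263. Its windows that began at chr7:143822917 and chr7:143823149 held none. The NF-Y box nearest before the start began at -45 in Hmgcs1, -62 in Lss, -29 in Cyp51 and -14 in Idi1. These are matches of letters, and binding was not measured.

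Between 13247122 and 26365620 reads per library were counted on genes (median 16854427). Levels are given as CPM, the counts scaled by TMM to libraries of one common size. Of 5 cartilage markers and 5 markers of bone-forming cells, 0 were undetected in all 3 mice of any group. The callus of lean d10 replicate 1 stood apart from the others. Its cartilage markers summed to 55556 CPM, against 10698 and 8788 CPM in the other lean d10 mice, and its 5 skeletal muscle markers to 905 CPM, against 11980 and 7841 CPM. Its TMM factor was the lowest of the 30 libraries (0.779, against 0.941 and 0.925 in the other lean d10 mice). A low factor raises every CPM of a library. In bulk tissue, fewer cells of a type and less RNA per cell cannot be told apart.

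Per kilobase of exon, the mean level over the 30 libraries was highest for Hmgcs1 (10.2 CPM per kb), followed by Cyp51 (8.31), Fdft1 (7.79), Dhcr7 (2.96), Sqle (2.51), Lss (1.36) and Idi1 (0.423). The highest of the 30 levels was 2.84 times the lowest for Fdft1, 5.66 times for Cyp51 and 5.99 times for Sqle. Idi1 rested on 7 to 95 counts per library, and 684 of its bases are identical in Gm13502, so its level is uncertain. Fdft1 shares 774 exon bases (18.3% of its exons) with Ctsb on the opposite strand, and Ctsb had 1117126 counts over all libraries against 17281 for Fdft1. Cyp51 shares 166 exon bases with Akap9 in the same way. Whether reads were counted by strand is not given in the sources used here.

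**Figure D1:**
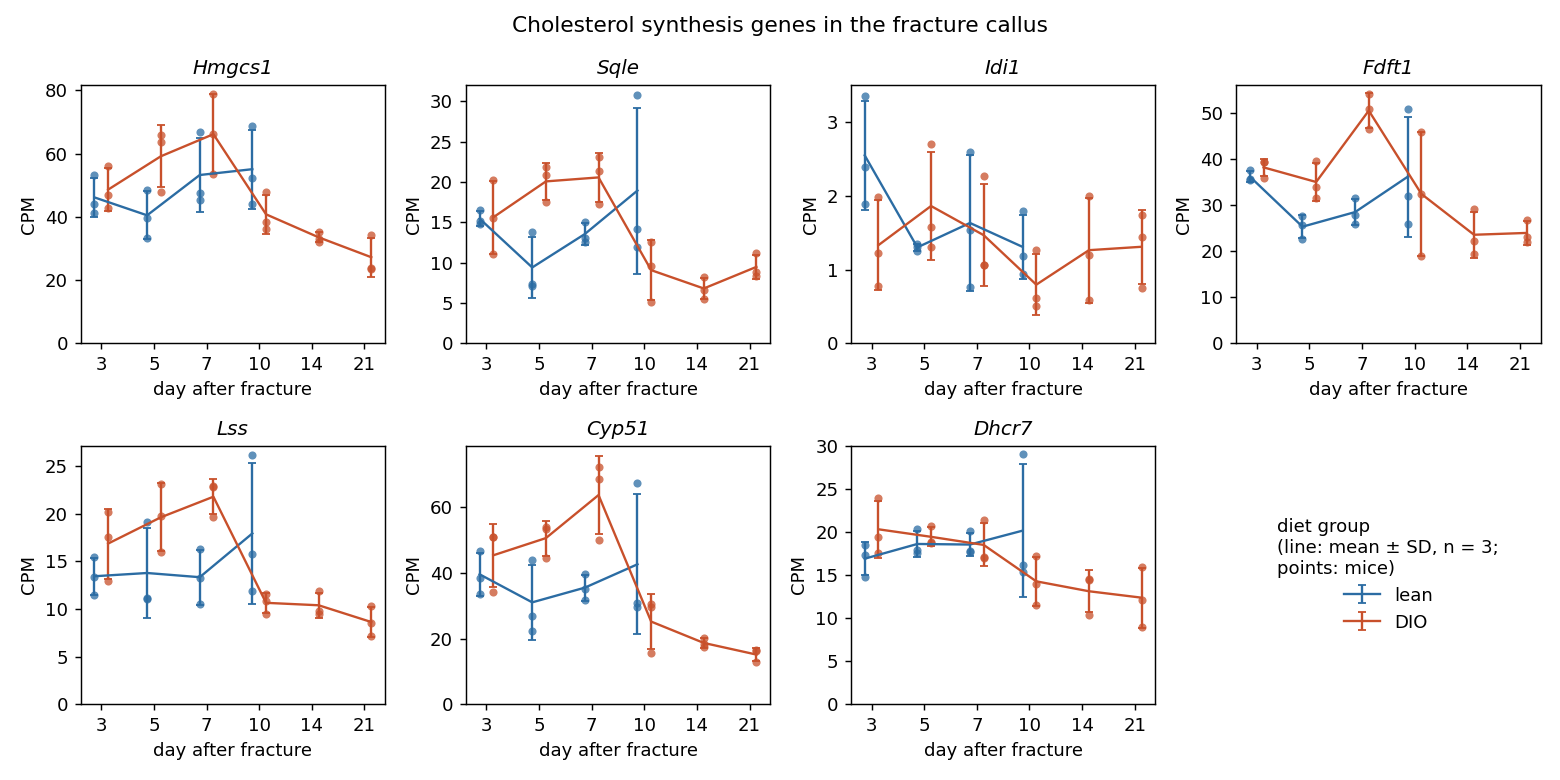
Level of each gene in CPM (vertical axes) by day after fracture (horizontal axes), with 1 point per mouse and the mean ± SD of the 3 mice of each diet and day. In the DIO callus Hmgcs1, Sqle, Fdft1, Lss and Cyp51 had their highest mean on d7, and lean d10 replicate 1 was the highest lean mouse for all genes except Idi1.

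In the DIO callus, Cyp51, Sqle, Lss and Hmgcs1 fell between d7 and d10, by 2.55-fold, 2.28-fold, 2.06-fold and 1.64-fold. By d21 the same 4 genes, Fdft1 and Dhcr7 were below their level of d3. Idi1 passed the test in 0 of the 5 comparisons of DIO days.

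Cyp51 measured 34.2, 51.03 and 50.8 CPM on d3, 53.4, 53.9 and 44.4 CPM on d5, 72.3, 68.6 and 50.1 CPM on d7, 15.6, 29.5 and 30.4 CPM on d10, 17.5, 20.3 and 18.2 CPM on d14 and 16.1, 12.8 and 16.5 CPM on d21. All mice of d10 were below those of d7, and all mice of d14 and d21 were below every mouse of d3, d5 and d7. The log2 change from d7 to d10 was -1.35 ± 0.22 (SE, n = 3 mice a day), with an adjusted p of 0.000601 in edgeR's quasi-likelihood test. From d3 to d21 it was -1.56 ± 0.23 (adjusted p = 3.75e-05), the largest fall of the 7 genes. From d3 to d10 it was -0.84 ± 0.22 (adjusted p = 0.0123), and 0.0603 without DIO d3 replicate 2.

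Lss, which acts just before Cyp51, measured 12.9, 20.1 and 17.6 CPM on d3, 23.1, 19.7 and 15.98 CPM on d5, 22.9, 19.6 and 22.8 CPM on d7, 11.6, 9.49 and 10.9 CPM on d10, 9.82, 9.44 and 11.9 CPM on d14 and 7.15, 8.47 and 10.3 CPM on d21. The mice of d10 did not overlap those of d7 or d3. Its log2 change was -1.04 ± 0.20 from d7 to d10 (adjusted p = 0.00206) and -0.94 ± 0.20 from d3 to d21 (adjusted p = 0.00107). From d3 to d10 it was -0.66 ± 0.20 (adjusted p = 0.0261), a call lost in 4 of 6 tests with 1 mouse left out (adjusted p of up to 0.139, without DIO d3 replicate 2).

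Sqle measured 11.1, 20.2 and 15.6 CPM on d3, 20.9, 21.8 and 17.5 CPM on d5, 21.4, 23.1 and 17.2 CPM on d7, 5.13, 9.56 and 12.6 CPM on d10, 5.57, 6.66 and 8.22 CPM on d14 and 8.88, 8.42 and 11.2 CPM on d21. The mice of d7 and d10 did not overlap, whereas those of d10 and d3 did. Between d7 and d10 the log2 change was -1.19 ± 0.28 (adjusted p = 0.00765). From d3 to d10 it was -0.78 ± 0.27 and did not pass (adjusted p = 0.0513), while it passed in 4 of 5 alternatives (adjusted p = 0.0288 to 0.0785) and reached 0.247 without DIO d3 replicate 2. From d3 to d21 it was -0.70 ± 0.27 (adjusted p = 0.045), a call lost in 4 of 6 tests with 1 mouse left out (adjusted p of up to 0.198, without DIO d3 replicate 2).

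Hmgcs1 measured 42.9, 56.05 and 46.8 CPM on d3, 65.8, 63.7 and 47.9 CPM on d5, 78.8, 66.05 and 53.5 CPM on d7, 38.5, 36.2 and 47.7 CPM on d10, 33.1, 32.1 and 35.3 CPM on d14 and 23.9, 23.4 and 34.4 CPM on d21. Every mouse of d14 and d21 was below every mouse of the earlier days. The log2 change was -0.71 ± 0.18 from d7 to d10 (adjusted p = 0.0159) and -0.81 ± 0.19 from d3 to d21 (adjusted p = 0.00186). The first was lost in 3 of 6 tests with 1 mouse left out (adjusted p of up to 0.0799, without DIO d7 replicate 1).

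Fdft1 measured 35.9, 39.2 and 39.3 CPM on d3, 39.5, 33.9 and 31.5 CPM on d5, 53.96, 46.4 and 50.8 CPM on d7, 19, 45.8 and 32.3 CPM on d10, 22.3, 29.02 and 19.3 CPM on d14 and 23.01, 22 and 26.8 CPM on d21. All 3 mice of d7 were above every other DIO mouse, and the mice of d10 were spread widely. The change from d7 to d10 of -0.65 ± 0.23 did not pass (adjusted p = 0.0667), and without DIO d10 replicate 2, the highest mouse of that day, it was -0.99 (adjusted p = 0.00809). Without DIO d10 replicate 1, the lowest mouse, it was -0.38 (adjusted p = 0.225). From d3 to d21 Fdft1 fell by 0.65 on the log2 scale (SE 0.23, adjusted p = 0.027), a call lost in 4 of 6 tests with 1 mouse left out (adjusted p of up to 0.0672, without DIO d21 replicate 1).

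Dhcr7, at the end of the chain, measured 17.5, 23.98 and 19.4 CPM on d3, 20.7, 18.7 and 18.9 CPM on d5, 17.1, 16.99 and 21.4 CPM on d7, 11.6, 17.2 and 13.98 CPM on d10, 10.3, 14.4 and 14.6 CPM on d14 and 8.99, 15.96 and 12.2 CPM on d21. Its change from d7 to d10 was the smallest of the 7 genes (-0.39 ± 0.22, adjusted p = 0.276). From d3 to d21 it fell (-0.69 ± 0.22, adjusted p = 0.0148), a call lost in 2 of 6 tests with 1 mouse left out (adjusted p of up to 0.0708, without DIO d21 replicate 1). Idi1 measured 0.7796, 1.99 and 1.23 CPM on d3, 1.58, 2.7 and 1.31 CPM on d5, 1.06, 2.27 and 1.07 CPM on d7, 0.613, 0.507 and 1.27 CPM on d10, 1.201, 2.005 and 0.587 CPM on d14 and 1.44, 0.755 and 1.74 CPM on d21. Neighbouring days overlapped throughout, and its change from d7 to d10 was -0.88 ± 0.56 (adjusted p = 0.352).

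Between any of the 6 DIO days, 6 of the 7 genes differed, where 59.1% of 16995 genes did. From d7 to d10, 4 of 7 were called lower, against 7.01% of all genes, and all 7 log2 changes were below 0, with a median of -0.88 (median of all genes -0.02). From d3 to d10, 2 of 7 were called lower, against 10.8% of all genes. From d3 to d21, 6 of 7 were called lower, against 21.8%. From d14 to d21, 0 of 7 passed in edgeR, 0 had an unadjusted p under 0.05 and 0 passed in DESeq2. Of all genes, 19.6%, 34.5% and 22.9% did.

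Ordered by group mean over both diets, DIO d7 came first and DIO d5 second for Hmgcs1, Sqle, Lss and Cyp51. For Fdft1 DIO d7 came first, with 50.4 CPM, and DIO d3 second, with 38.1 CPM, and these did not overlap. The last place was held by DIO d21 for Hmgcs1, Lss, Cyp51 and Dhcr7, by DIO d14 for Sqle and Fdft1, and by DIO d10 for Idi1. Neighbours in the order also did not overlap for Sqle between lean d7 (13.6 CPM) and DIO d21 (9.49 CPM), and for Cyp51 between DIO d14 (18.6 CPM) and DIO d21 (15.1 CPM). All other neighbours overlapped.

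Between the days of the lean callus, 0 of the 7 genes passed the test. Cyp51 measured 33.5, 38.5 and 46.6 CPM on d3, 22.3, 26.97 and 43.8 CPM on d5, 31.8, 34.97 and 39.6 CPM on d7 and 67.2, 29.7 and 30.9 CPM on d10. Sqle measured 15.1, 14.8 and 16.5 CPM on d3, 7.16, 7.34 and 13.8 CPM on d5, 13.1, 12.5 and 15.1 CPM on d7 and 30.8, 14.1 and 11.96 CPM on d10. In both genes lean d10 replicate 1 was far above the other lean mice. In CPM scaled by TMM, it was also the highest of the 12 lean mice for Hmgcs1, Fdft1, Lss and Dhcr7. Its low TMM factor, given above, raises these levels.

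Lss measured 15.4, 11.5 and 13.4 CPM on d3, 11.1, 11.1 and 19.2 CPM on d5, 10.5, 13.3 and 16.2 CPM on d7 and 26.2, 15.8 and 11.8 CPM on d10. Hmgcs1 measured 41.1, 44.2 and 53.2 CPM on d3, 33.2, 39.8 and 48.4 CPM on d5, 45.4, 47.5 and 66.8 CPM on d7 and 68.7, 44.2 and 52.3 CPM on d10. In both genes the days overlapped. Fdft1 measured 35.3, 37.6 and 35.5 CPM on d3, 22.6, 25.6 and 27.7 CPM on d5, 31.5, 27.9 and 25.9 CPM on d7 and 50.7, 31.9 and 25.8 CPM on d10. All mice of d3 were above those of d5 and d7. Dhcr7 measured 18.5, 14.8 and 17.4 CPM on d3, 17.6, 20.4 and 17.9 CPM on d5, 17.6, 17.8 and 20.1 CPM on d7 and 29, 15.3 and 16.1 CPM on d10. Its days overlapped, and without lean d10 replicate 1 the other mice of d10 lay below those of d5 and d7. Idi1 measured 2.396, 3.35 and 1.895 CPM on d3, 1.25, 1.35 and 1.304 CPM on d5, 1.54, 0.768 and 2.59 CPM on d7 and 1.19, 0.943 and 1.79 CPM on d10. Its mice of d10 lay below those of d3, and the log2 change of -0.94 ± 0.43 did not pass (adjusted p = 0.123).

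Between any of the lean days, 0 of 7 genes passed in edgeR, 0 had an unadjusted p under 0.05 and 0 passed in DESeq2. Of 16471 genes in all, 19%, 35.7% and 29.4% did. In the same order, the counts were 0, 0 and 0 of 7 from d7 to d10 (2.73%, 26% and 11.1% of all genes) and 0, 0 and 0 of 7 from d3 to d10 (29.3%, 41.8% and 33.1%). From d7 to d10 the log2 changes ran from -0.31 ± 0.44 for Idi1 to 0.49 ± 0.34 for Sqle. Without lean d10 replicate 1, that of Sqle became -0.04 ± 0.27, and that of Cyp51 went from 0.27 ± 0.31 to -0.21 ± 0.25.

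Between the diets, Fdft1 was 1.79-fold higher in the DIO callus on d7. On d5, the DIO mice were above the lean mice without overlap for Sqle, Fdft1 and Cyp51, and these differences did not pass the test. The share of all genes without overlap between the diets was not counted on any day, so these separations have no baseline. On d10, all 7 log2 differences were below 0 and 0 passed. On d3 the diets overlapped for all 7 genes.

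On d7, Fdft1 measured 53.96, 46.4 and 50.8 CPM in the DIO mice and 31.5, 27.9 and 25.9 CPM in the lean mice. The log2 difference was 0.84 ± 0.16 (adjusted p = 0.0323). It was the 1 of 7 genes called higher, against 1.4% of 15753 genes, and DESeq2 called 2 of 7, against 5.99% of all genes. The call was lost in 4 of 6 tests with 1 mouse left out (each lean d7 mouse or DIO d7 replicate 1; adjusted p of up to 0.188, without lean d7 replicate 2). With the replicate number as a block it was also lost (adjusted p = 0.0702). Cyp51 (0.85 ± 0.19, adjusted p = 0.0516), Lss (0.72 ± 0.22, adjusted p = 0.141) and Sqle (0.61 ± 0.21, adjusted p = 0.167) did not overlap between the diets and did not pass. How many of all genes did not overlap was not counted. The difference of Dhcr7 was 0.01 ± 0.20.

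On d5, Sqle measured 20.9, 21.8 and 17.5 CPM in the DIO mice and 7.16, 7.34 and 13.8 CPM in the lean mice, where 2 of 3 were low. The log2 difference was 1.09 ± 0.26 (adjusted p = 0.0915). In edgeR 0 of 7 passed on d5, where 1.08% of 15722 genes did, 4 had an unadjusted p under 0.05 (18.5% of all genes), and 1 passed in DESeq2, Sqle, where 7.31% of all genes did. On d3, 0 of 7 passed in edgeR (0% of all genes) and 0 in DESeq2 (4.62%), and 1 had an unadjusted p under 0.05 (15.1%). On d10, 0 of 7 passed in edgeR (0% of all genes) and 0 in DESeq2 (0.306%), and 2 had an unadjusted p under 0.05 (7.05%). The d10 differences ran from -1.05 ± 0.43 for Sqle to -0.15 ± 0.34 for Fdft1. Without lean d10 replicate 1 these were -0.53 ± 0.32 and 0.16 ± 0.28.

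**Figure D2:**
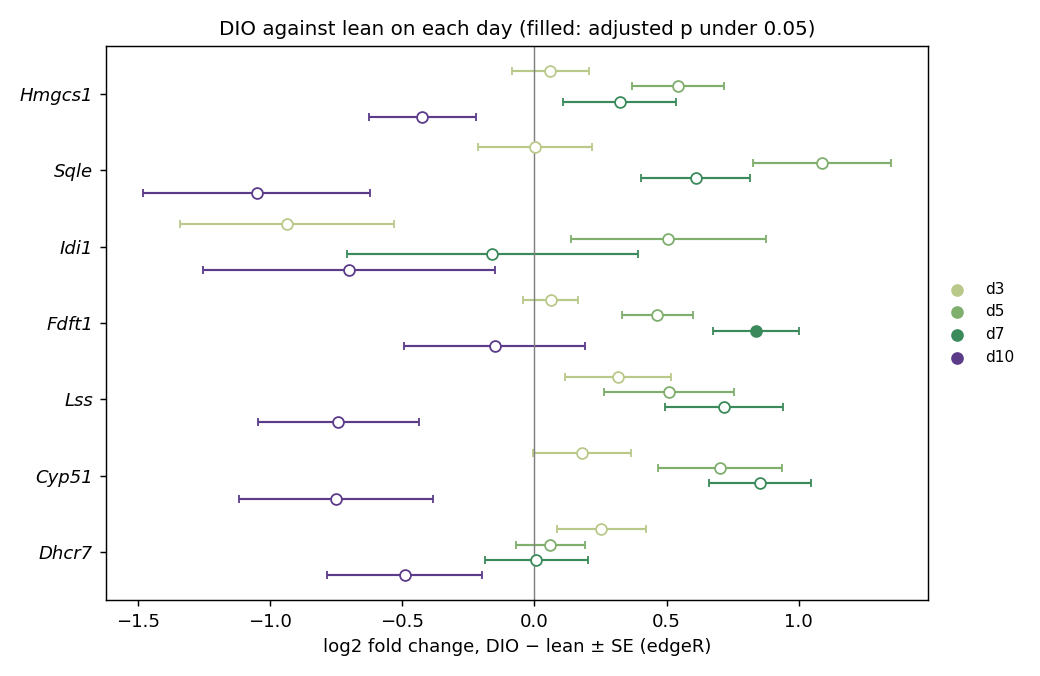
Log2 fold change of the DIO callus against the lean callus (± SE, 3 mice a group, horizontal axis) for each gene on d3, d5, d7 and d10, with filled points for an adjusted p under 0.05. Fdft1 on d7 is the 1 filled point, and 7 of 7 genes lie left of 0 on d10, where Fdft1 moves to the right of 0 without lean d10 replicate 1.

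Over d3 to d10 as a whole, Sqle, Lss and Cyp51 followed different curves in the lean and DIO callus (adjusted p = 0.029, 0.0346 and 0.0376). These were 3 of 7 genes, against 8.13% of 17057 genes. Fdft1 (adjusted p = 0.0768) and Hmgcs1 (adjusted p = 0.0985) did not pass. Sqle passed in 5 of 5 alternative fits, Lss in 4 (adjusted p of up to 0.0621) and Cyp51 in 3 (up to 0.0621). Without lean d5 replicate 2 the p-values were 0.0593 for Sqle, 0.072 for Lss and 0.081 for Cyp51, and 0 of 7 genes passed. The count was also 0 without lean d7 replicate 2 or DIO d7 replicate 2, and 1 without any of 7 other mice (lean d5 replicate 1, lean d7 replicate 1, DIO d3 replicate 3, DIO d5 replicates 1 and 2, DIO d7 replicate 1 and DIO d10 replicate 2). Without lean d10 replicate 1, 4 of 7 passed, with Fdft1 (adjusted p = 0.045) added.

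Sqle, Lss and Cyp51 also differed between the diets in their change from d7 to d10. The DIO change minus the lean change was -1.61 ± 0.42 for Cyp51 (adjusted p = 0.0323), -1.46 ± 0.37 for Lss (adjusted p = 0.0283) and -1.66 ± 0.47 for Sqle (adjusted p = 0.0435). These were 3 of 7 genes called lower, against 3.37% of all genes. All 3 calls were lost without lean d10 replicate 1, with differences of -1.11 ± 0.36 for Cyp51 (adjusted p = 0.134), -1.08 ± 0.34 for Lss (adjusted p = 0.118) and -1.12 ± 0.41 for Sqle (adjusted p = 0.185). The count was also 0 without lean d7 replicate 1, lean d7 replicate 2, DIO d7 replicate 1 or DIO d10 replicate 1, and 1 without DIO d7 replicate 2. The call of Sqle was also lost with the replicate number as a block (adjusted p = 0.0528).

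**Figure D3:**
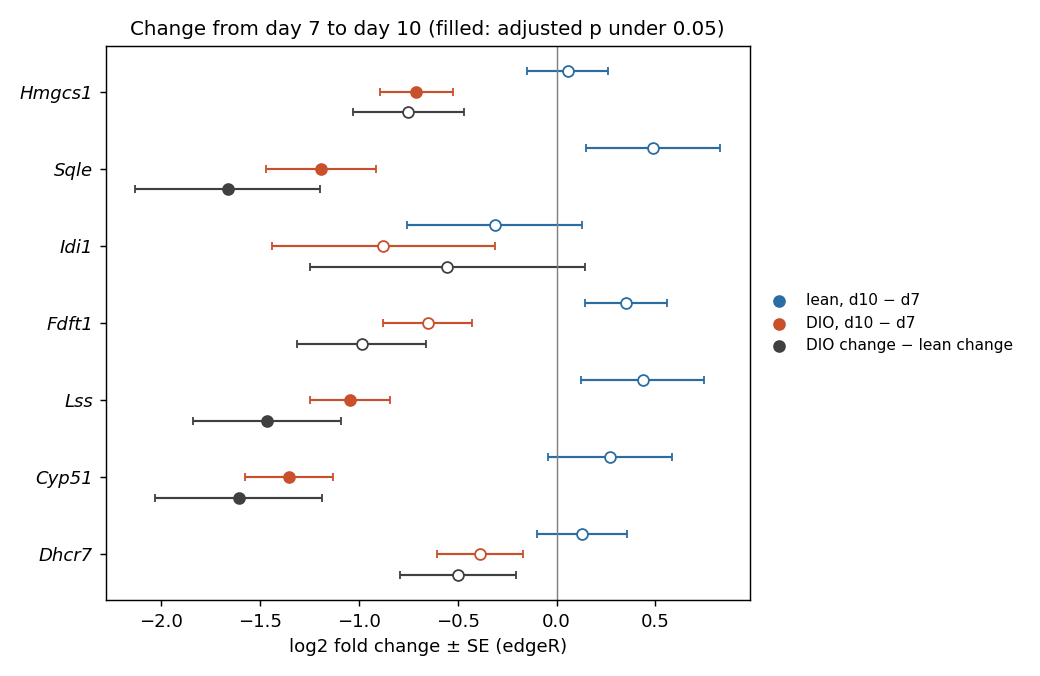
Log2 fold change from d7 to d10 (± SE, 3 mice a group, horizontal axis) in the lean callus, in the DIO callus and as the difference between them, with filled points for an adjusted p under 0.05. In the DIO callus 4 of 7 genes are filled and all lie left of 0. In the lean callus 0 are filled and 6 of 7 lie right of 0, of which Hmgcs1, Sqle, Cyp51 and Dhcr7 move to the left of 0 without lean d10 replicate 1.

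Markers of several cell types moved beside these genes. The 5 cartilage markers summed to 13359 to 32784 CPM in the DIO callus on d7 and 1406 to 4779 CPM on d10, with 5 of 5 called lower, and to 2887 to 12040 CPM in the lean callus on d7 and 8788 to 55556 CPM on d10. Lean d10 replicate 1, with the highest cartilage sum, also had the highest mean standardized level of the 7 genes (1.49 SD). On d3 the cartilage sum was 307 to 428 CPM in the lean callus and 298 to 978 CPM in the DIO callus, while the mean of the 7 genes was above 0 in 5 of 6 mice. Skeletal muscle markers summed to 5312 to 14903 CPM on d7 and 15009 to 20376 CPM on d10 in the DIO callus, with 0 of 5 called. Leukocyte markers summed to 1862 to 2328 CPM in the DIO callus and 3008 to 3944 CPM in the lean callus on d7, with 3 of 5 called lower in the DIO callus. The 5 markers of dividing cells were below their d7 level on d10 in the DIO callus, 3 of 5 called (median log2 change -0.806). In the lean callus all 5 were also below their d7 level on d10, 1 of 5 called (median -0.823). In the DIO callus all 5 rose from d14 to d21, when 0 of the 7 genes passed. From d7 to d10 in the DIO callus, B lineage markers also rose (5 of 5, median log2 change 2.52), as did adipocyte markers (4 of 5, median 4.09). Of the 5 markers of bone-forming cells, 3 were called higher and 2 had log2 changes below 0 (median 1.80). The sums of that list overlapped between the 2 days. B lineage sums went from 6.96 to 28.9 CPM to 62.5 to 106 CPM, adipocyte sums from 6.15 to 15.3 CPM to 36.9 to 134 CPM, and sums of bone-forming cells from 7545 to 12194 CPM to 8818 to 10665 CPM. Erythroid, B lineage and adipocyte markers rose from d3 to d21 in the DIO callus, 5 of 5 in each list, and the erythroid sum went from 603 to 703 CPM to 22580 to 32743 CPM. The part of these cells in the changes of the 7 genes was not tested.

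**Figure D4:**
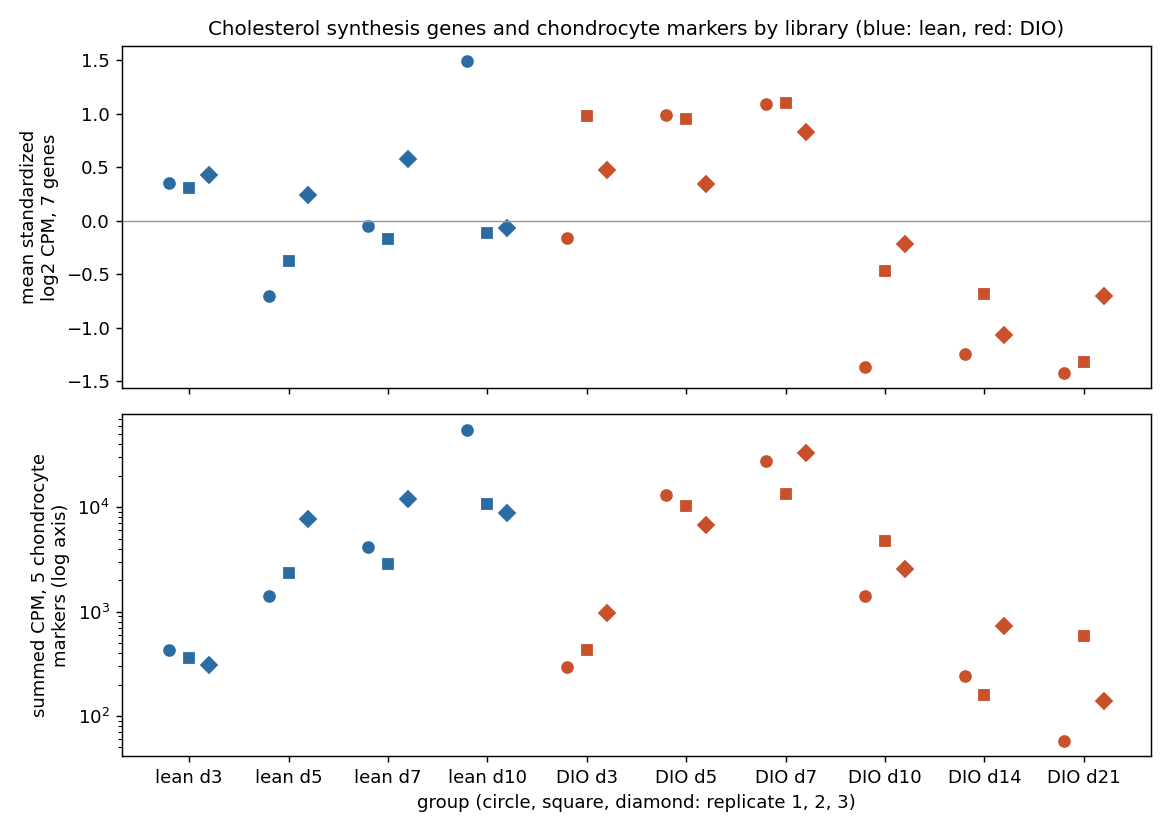
Mean standardized log2 CPM of the 7 genes (in SD over the 30 libraries) and summed CPM of 5 cartilage markers (log axis) for each mouse, by diet and day. Lean d10 replicate 1 is the highest in both, and on d3 the marker sums are at most 978 CPM while 5 of 6 mice lie above 0 for the 7 genes.

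Hmgcs1, Fdft1, Sqle, Lss, Cyp51 and Dhcr7 varied together across the 30 libraries. Pearson's r of log2 CPM was 0.907 for Hmgcs1 and Cyp51 and 0.893 for Sqle and Cyp51, and the lowest among these 6 genes was 0.586, for Fdft1 and Dhcr7. With Idi1 it ran from 0.134 to 0.408. These values are descriptions over libraries that share day, diet and cell makeup. Among 12120 other genes with a mean of at least 5 CPM, the 5 most like the mean of the 7 were Fdps (0.888), Arsi (0.884), Ppa1 (0.884), Nucb2 (0.883) and Tmem43 (0.882), all Pearson's r. Fdps encodes farnesyl diphosphate synthase, the step between Idi1 and Fdft1. By Spearman's rho, Fdps was at rank 73, and Ppa1 was the 1 of the 5 still among the first 5.

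Of the 12 other genes of cholesterol synthesis, 2 fell in the DIO callus from d7 to d10, against 7.01% of all genes. Of the log2 changes, 11 of 12 were below 0 (median -0.35). The desaturase gene Sc5d measured 30.1, 22.6 and 18.6 CPM on d7 and 9.5, 12.97 and 12.6 CPM on d10, without overlap. Its log2 change was -1.04 ± 0.21 (adjusted p = 0.00276). Fdps was the other (-0.89 ± 0.21, adjusted p = 0.00731). From d3 to d21, 4 of 12 fell and 2 rose, where 45.3% of all genes passed. Mvk and Mvd, which act on mevalonate and its phosphates, fell (-1.22 ± 0.19 and -1.18 ± 0.19, adjusted p = 8.32e-05 and 0.000112). Lbr, known as a nuclear envelope protein as well as a sterol reductase, rose (2.34 ± 0.25, adjusted p = 2.81e-06). In the lean callus 0 of 12 passed from d7 to d10 in edgeR and 1 in DESeq2 (2.73% and 11.1% of all genes). From d3 to d10, 3 of 12 passed, against 29.3% of all genes. Tm7sf2 (0.89 ± 0.23, adjusted p = 0.015) and Pmvk rose and Lbr fell (-1.04 ± 0.29, adjusted p = 0.0197). All 3 calls were lost without lean d10 replicate 1, with log2 changes of 0.69 ± 0.24 for Tm7sf2 (adjusted p = 0.0544), 0.42 ± 0.17 for Pmvk (adjusted p = 0.0931) and -0.93 ± 0.32 for Lbr (adjusted p = 0.0584). Between the diets 0 of 12 passed in edgeR on d3, d5, d7 or d10 (0%, 1.08%, 2.32% and 0% of all genes). DESeq2 called 1, 2, 1 and 0 on these days (4.62%, 7.31%, 5.99% and 0.306% of all genes).

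Among the 8 genes that sense sterols and process SREBP, Stard4 and Srebf2 fell and Insig2 rose in the DIO callus from d7 to d10. In that comparison 13% of all genes passed. Stard4, a carrier of cholesterol between membranes, measured 44.8, 43.7 and 34.5 CPM on d7 and 14.9, 16.9 and 23.3 CPM on d10 (log2 change -1.17 ± 0.19, adjusted p = 0.000416). In the lean callus it measured 21.4, 22.6 and 23.7 CPM on d7, and the diets differed on that day (0.87 ± 0.18, DIO minus lean, adjusted p = 0.0382). Stard4 also differed between the diets over the time course (adjusted p = 0.0116). Srebf2, the gene of SREBP2, went from 66.4, 72.8 and 103 CPM on d7 to 58.8, 46.5 and 52.7 CPM on d10 (-0.63 ± 0.17, adjusted p = 0.022) and rose from d14 to d21 (0.55 ± 0.17, adjusted p = 0.0356).

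Insig2, which helps to hold SREBP in the endoplasmic reticulum, measured 77.2, 64.3 and 58.8 CPM on d7, 96.3, 103 and 133 CPM on d10 and 77.6, 63.6 and 67.7 CPM on d21 in the DIO callus. It rose from d7 to d10 (0.72 ± 0.18, adjusted p = 0.0138) and from d3 to d10 (1.3 ± 0.19, adjusted p = 0.000141), and fell from d14 to d21 (-0.73 ± 0.18, adjusted p = 0.0121). It also rose in the lean callus from d3 to d10 (0.94 ± 0.22, adjusted p = 0.00886), and without lean d10 replicate 1 the change was 1.00 ± 0.24 (adjusted p = 0.0138). From d3 to d10 in the DIO callus, 6 of the 8 passed, where 21.8% of all genes did. Srebf2 (-0.86 ± 0.17), Srebf1 (-0.66 ± 0.22), Scap (-0.49 ± 0.16) and Stard4 (-0.53 ± 0.18) fell, and Insig1 (0.62 ± 0.18) and Insig2 rose. The proteases Mbtps1 and Mbtps2, which cut SREBP, did not pass between any of the DIO days (adjusted p = 0.105 and 0.141).

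Of 10 genes of sterol efflux, oxysterols and the LXR receptors, 3 rose and 2 fell in the DIO callus from d7 to d10. Of all genes, 6.01% rose and 7.01% fell. Npc2, a carrier of cholesterol in lysosomes (1.16 ± 0.19, adjusted p = 0.00051), the sterol 27-hydroxylase gene Cyp27a1 (1.15 ± 0.34, adjusted p = 0.03) and the exporter gene Abcg1 (0.81 ± 0.26, adjusted p = 0.0439) rose. Scarb1, a receptor for high-density lipoprotein (-0.67 ± 0.20, adjusted p = 0.0365), and the cholesterol 25-hydroxylase gene Ch25h (-1.60 ± 0.51, adjusted p = 0.0463) fell. In the lean callus 2 of 10 passed from d7 to d10, against 2.73% of all genes. Npc2 also rose there (0.77 ± 0.18, adjusted p = 0.0469), and Soat1 fell (-0.70 ± 0.13, adjusted p = 0.0286). Without lean d10 replicate 1, 0 of 10 passed in that comparison. Cyp27a1 measured 15.3, 8.28 and 20.2 CPM on d7 and 35.2, 34.6 and 28.6 CPM on d10 in the DIO callus, and 37.1, 34.5 and 30.1 CPM and 6.58, 23.2 and 22.1 CPM in the lean callus. On d7, Abcg1 was the 1 of 10 genes that differed between the diets, where 2.32% of all genes did. It was lower in the DIO callus (-1.06 ± 0.19, adjusted p = 0.0273). Leukocyte markers were also lower in the DIO callus on d7, with the sums given above.

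Of 8 genes of fatty acid synthesis, 4 fell in the DIO callus from d7 to d10, against 7.01% of all genes. They were the elongase gene Elovl6 (-0.99 ± 0.22, adjusted p = 0.00522), the desaturase gene Scd2 (-0.80 ± 0.19, adjusted p = 0.00898), Me1 (-0.72 ± 0.18, adjusted p = 0.0135) and the acetyl-CoA carboxylase gene Acaca (-0.51 ± 0.16, adjusted p = 0.0494). From d3 to d21 in the DIO callus, 2 of 8 were called higher and 3 lower, where 45.3% of all genes passed. Scd1, a desaturase gene abundant in fat tissue, rose (3.80 ± 0.34, adjusted p = 5.23e-07). Scd2 (-1.48 ± 0.19, adjusted p = 1.44e-05) and Me1 (-1.42 ± 0.19, adjusted p = 1.54e-05) fell. The adipocyte sum went from 5.96 to 20.9 CPM on d3 to 332 to 413 CPM on d21. Of these 8 genes, 0 passed in the lean callus from d7 to d10 in edgeR and 0 in DESeq2. Only 2.73% and 11.1% of all genes did. Of 6 genes of the branches that make coenzyme Q, dolichol and geranylgeranyl groups from the same isoprene units, 0 passed in the DIO callus from d7 to d10 in edgeR and 0 in DESeq2, with a median log2 change of -0.03. In that comparison 13% of all genes passed in either direction in edgeR, and 15.5% in DESeq2.

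**Figure D5:**
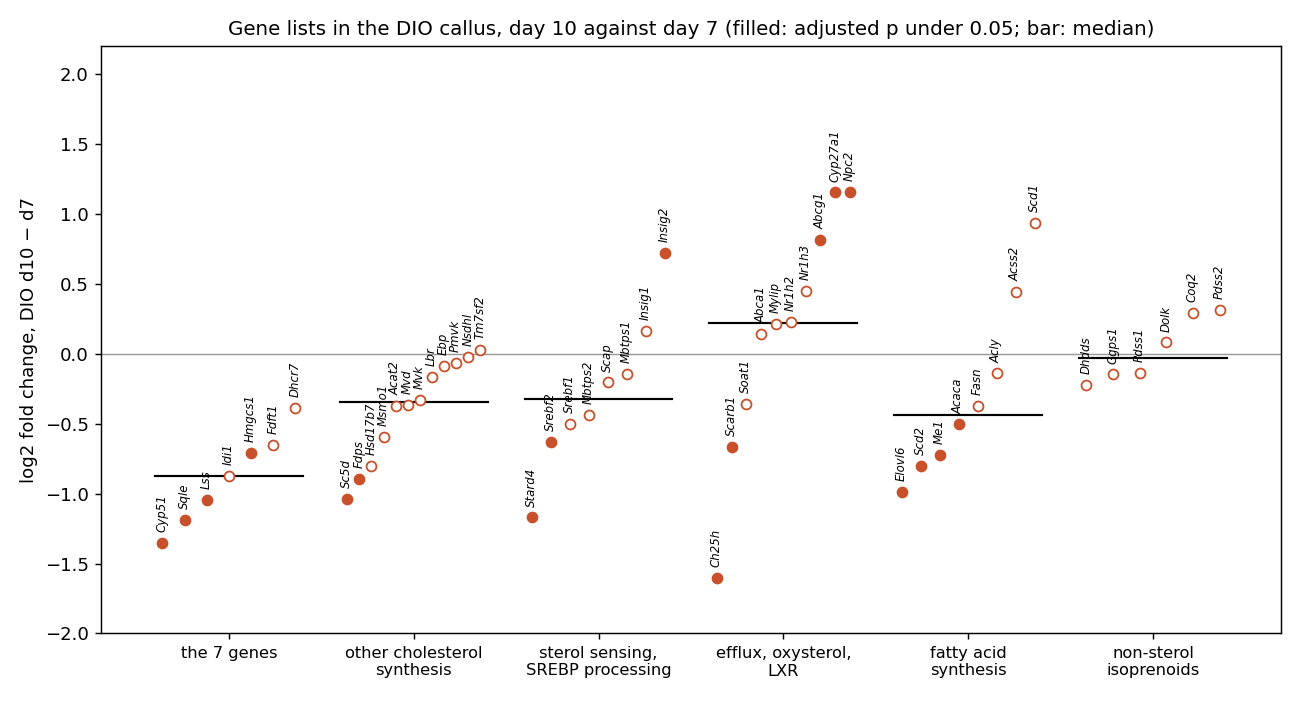
Log2 fold change from d7 to d10 in the DIO callus for the 7 genes and for 5 gene lists, with 1 point per gene, filled points for an adjusted p under 0.05 and a bar at the median of each list. The medians are -0.88 for the 7 genes, -0.35 for other cholesterol synthesis and -0.03 for the non-sterol branches.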

How the data were processed

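RNA-seq was performed on 30 callus libraries, 1 mouse each. The authors trimmed the reads with BBDuk, aligned them to GRCm38 with HISAT2 2.1.0 and deposited raw read counts per Ensembl gene made with HTSeq. The kit was stranded, and the strand setting of the counting is not given in the sources used here. Symbols and exon lengths were taken from GENCODE M21. Genes were filtered with filterByExpr, scaled by TMM and tested with edgeR 4.0.16 (quasi-likelihood, Benjamini-Hochberg adjustment over all genes tested, threshold 0.05), within each diet over days and within each day over diets. Time courses were fitted with polynomials of degree 2 in day. Alternatives were RLE factors, no filter, DESeq2 1.42.0, a replicate block, all 30 libraries in 1 fit and leaving out each mouse. No pair of libraries in a group was a duplicate (chi-square per degree of freedom 13.6 to 160). Scripts were tested on simulated data. The 7 genes and the lists were chosen with earlier results of these data known. From each list, at most 3 genes per comparison with the smallest adjusted p were named, and every gene of sterol sensing. Acaca, Abcg1 and Ch25h from d7 to d10 in the DIO callus fall outside the first 3 and were named after their values were seen. A gene of cholesterol synthesis is not reported here and enters no count of the lists.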

Additional observations from a re-analysis of the deposited data

Results flagged for a closer look

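Only the 7 genes and the 5 gene lists (12, 8, 10, 8 and 6 genes) were looked at here. In 9 of these genes the change from d7 to d10 differed between the diets. The test was of the difference itself (DIO change minus lean change, log2, edgeR), and 5.07% of 17057 genes passed it. Among the 7 genes these were Sqle (-1.66, adjusted p = 0.0435), Lss (-1.46, adjusted p = 0.0283) and Cyp51 (-1.61, adjusted p = 0.0323). Among other genes of cholesterol synthesis these were Fdps (-1.52, adjusted p = 0.033) and Sc5d (-1.21, adjusted p = 0.049). Stard4 (-1.57, adjusted p = 0.00565) and Acaca (-0.84, adjusted p = 0.033) went the same way, and Cyp27a1 (2.14, adjusted p = 0.033) and Abcg1 (1.22, adjusted p = 0.049) the opposite way. Without lean d10 replicate 1, the number that passed was 0 of 7 for the genes described here, 0 of 12 for other cholesterol synthesis, 1 of 8 for sterol sensing, 0 of 10 for efflux and 0 of 8 for fatty acid synthesis, an alternative chosen after seeing the data. The cause was not tested.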

How the results depend on the processing

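The falls of Cyp51, Lss and Sqle in the DIO callus from d7 to d10 passed under all 5 alternatives and with each mouse left out, and so did the difference of Hmgcs1, Fdft1, Sqle, Lss, Cyp51 and Dhcr7 between any DIO days. With 1 mouse left out, the number of the 7 genes that passed ran from 0 to 1 between any lean days, 3 to 4 in the DIO callus from d7 to d10, 0 to 3 from d3 to d10 and 3 to 6 from d3 to d21, 0 to 2 between the diets on d5, 0 to 2 on d7, 0 to 4 over the time course and 0 to 4 for the change from d7 to d10. With all 30 libraries in 1 fit, 1 gene passed in the DIO callus from d3 to d10, and 3 passed in each of the other 4 alternatives, with Sqle added. On d5, 1 passed without the filter on low counts and 1 in DESeq2. On d7, 2 passed with RLE factors, 2 without the filter, 2 in DESeq2 and 0 with the replicate number as a block. With diet effects on each of 4 days in place of curves, 1 gene passed over the time course. The replicate numbers were not treated as pairs in the main fits. The mean correlation of same-numbered deviations was -0.206 to 0.171 over the 14 comparisons, and 0 comparisons had every correlation over 0.1. This rule does not test whether variation was shared by replicate number. With the block, 1479 of 16471 genes passed in the lean callus from d7 to d10, and 450 without it. In the DIO callus from d7 to d10, 1982 of 16995 genes passed with the block and 2212 without it. Directions of small changes also turned. Fdft1 in the lean callus from d3 to d10 was -0.011 with the block and -0.018 with all 30 libraries, Idi1 in the DIO callus from d3 to d21 was 0.12 with the block, Sqle between the diets on d3 was -0.032 with the block and -0.0096 with all 30 libraries, and Dhcr7 on d7 was -0.0035 with all 30 libraries. With 1 mouse left out, log2 values also changed sign. For the lean callus from d7 to d10 the range was -0.13 to 0.25 for Hmgcs1, -0.040 to 0.73 for Sqle, -0.65 to 0.19 for Idi1, -0.21 to 0.47 for Cyp51, -0.22 to 0.29 for Dhcr7. For the lean callus from d3 to d10 the range was -0.22 to 0.54 for Sqle, -0.30 to 0.19 for Fdft1, -0.36 to 0.31 for Cyp51, -0.080 to 0.42 for Dhcr7. For the DIO callus from d3 to d10 the range was -0.57 to 0.037 for Fdft1. For the DIO callus from d14 to d21 the range was -0.28 to 0.56 for Idi1, -0.092 to 0.21 for Fdft1, -0.29 to 0.11 for Dhcr7. For the DIO callus from d3 to d21 the range was -0.30 to 0.38 for Idi1. Between the diets on d3 the range was -0.055 to 0.17 for Hmgcs1, -0.23 to 0.20 for Sqle. Between the diets on d7 the range was -0.59 to 0.37 for Idi1, -0.096 to 0.088 for Dhcr7. Between the diets on d10 the range was -0.49 to 0.16 for Fdft1. By Spearman's rho, 1 of the 5 most similar genes was shared. DESeq2 moved 13 of 70 counts of list genes by over 1.5 times, 13 of them upward, and RLE factors moved 1. The cause of these shifts was not tested. Idi1 was limited by its counts, 7 to 95 per library.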
